A study of Mus musculus with 6 samples.

Results

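The neuregulins Nrg1, Nrg2, Nrg3 and Nrg4 and the receptors Egfr, Erbb2, Erbb3 and Erbb4 were examined in single nuclei of the aged mouse hippocampus. They were taken by gene symbol, and all 8 were found among the 32285 genes of the count matrices. One group of mice was given 2% sevoflurane, an inhaled general anaesthetic, with 60% oxygen during 6 h, and the control mice breathed 60% oxygen without the anaesthetic for the same 6 h, both at 1 L/min and breathing on their own. Mice of both groups were 18 to 20 months old, the tissue was frozen hippocampus, and each group has 3 libraries, of which replicates 1 and 2 are labelled male and replicate 3 female. The labels name no strain and do not state the number of animals behind a library, and the p-values below measure the spread between libraries, which may be partly technical.

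Neuregulins are ligands with an EGF-like domain, mostly made as membrane-bound precursors that proteases cut and release. Erbb3 and Erbb4 bind neuregulins, Erbb2 binds no known ligand and works as the partner of the others, Erbb3 has little kinase activity of its own, and Egfr is the receptor of EGF and related ligands. In the hippocampus, Nrg1 and Nrg3 acting on Erbb4 are known for their part in forming synapses on and from inhibitory interneurons, and Erbb3 is known from the oligodendrocyte and Schwann cell lineages. Nrg4 is a ligand of Erbb4 best known as a secreted factor of adipose tissue.

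The promoter of Nrg4, the gene called most often below, is shown so that its start can be placed. RefSeq, on GRCm38.p6, puts that start 43219 bases inside the span that GENCODE M21 gives the gene, so the window of 300 bases at chr9:55283576-55283875 is that of 1 annotated start. It reads as follows on the minus strand, with the letters GGGCGTG, the core bound by KLF and SP factors, in capitals.
Nrg4 promoter: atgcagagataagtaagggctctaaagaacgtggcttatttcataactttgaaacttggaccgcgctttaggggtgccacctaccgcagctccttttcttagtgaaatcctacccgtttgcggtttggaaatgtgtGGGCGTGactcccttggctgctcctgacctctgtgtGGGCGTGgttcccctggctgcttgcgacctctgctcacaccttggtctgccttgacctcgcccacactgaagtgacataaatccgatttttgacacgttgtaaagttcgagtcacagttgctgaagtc
Searched on both strands, GGGCGTG was found 2 times in this window, and 8.44% of the 32851 RefSeq promoters of this length hold it at least once. The AP-1 letters TGANTCA (7.81% of promoters), the CRE TGACGTCA (1.79%), AAAGGTCA (1.51%), the E-box CACGTG (7.15%) and GCGTGGGCG (0.612%) were not found there. The last of these shares letters with GGGCGTG. A match is a match of letters and no site.

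After filtering, 51892 nuclei were kept of 53824 barcodes. The kept nuclei of a library held 53930714 to 68985627 UMIs (unique molecules), with 4664 to 6090 in the median nucleus. Of the 34 clusters, 23 could be named from markers and gave 17 classes, written as "-like". Choroid plexus-like nuclei numbered 0, 0 and 0 under sevoflurane and 60, 16 and 99 under oxygen, and septal inhibitory-like nuclei 166, 216 and 182 in sevoflurane and 11, 14 and 18 in oxygen libraries. Library sevoflurane 1, labelled male, had 1363 CPM (UMIs per 1000000 UMIs) of Xist, against 0.501 to 1.22 in the other 5 libraries, and both replicates 3, labelled female, had Y-linked genes at the level of the males, so 3 of 6 libraries went against their sex labels. The libraries shared 327 barcode sequences. Levels below are CPM of the UMIs that a library has in a class. A cluster of 4767 low-UMI barcodes is given beside them as a rough measure of free RNA, a use that was not tested. It was left unnamed, but it passed the inhibitory markers Gad1, Gad2 and Slc32a1. Its leading genes include Ttr, of the choroid plexus list, and Sst, of the somatostatin list.

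In the GENCODE M21 annotation of the mm10 build the ligand genes lie at chr8:31814551-32884029, chr18:36017652-36197380, chr14:38368952-39473088 and chr9:55220222-55326844 for Nrg1 to Nrg4, all on the minus strand. Egfr (chr11:16752203-16918158) and Erbb2 (chr11:98412470-98437716) lie on the plus strand, and Erbb3 (chr10:128567523-128589652) and Erbb4 (chr1:68032186-69108059) on the minus strand.

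Nrg1 was highest in Cajal-Retzius-like nuclei, early-born neurons of the hippocampal margin, and in subicular or cortical excitatory-like nuclei. Its mean over the 6 libraries was 3043 ± 631 CPM in the first class and 1713 ± 87.4 in the second (SD, n = 6 libraries, as in all levels of this kind below), and neither range overlapped the next class. Newly formed oligodendrocyte-like nuclei at 1056 ± 193, oligodendrocyte precursor-like at 937 ± 309, dentate granule-like at 773 ± 114 and CA1-like nuclei at 768 ± 90.7 did not differ beyond their spread. CA3-like nuclei had 128 ± 42.0 CPM, below the 373 ± 81.5 of the low-UMI cluster, unlike the other excitatory classes among the 17. CA2-like nuclei, set apart only by a finer clustering, were low too. They had 211 ± 116 CPM in sevoflurane and 181 ± 46.4 in oxygen libraries (SD, n = 3 libraries each). The subicular or cortical class held 33.6% of all Nrg1 UMIs with 17.9% of all UMIs. A cluster left unnamed, led by 9330185C12Rik, Plch1 and Fermt1, had the most, 4349, 5263 and 4022 CPM in sevoflurane and 5030, 4783 and 4438 in oxygen libraries.

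Nrg2, a ligand of Erbb3 and Erbb4, marked dentate granule-like nuclei. It stood there at 379 ± 27.2 CPM, with every library above the next class, and the class held 53.4% of its UMIs with 22.1% of all UMIs. Septal inhibitory-like (225 ± 50.3), inhibitory-like (188 ± 11.9) and oligodendrocyte precursor-like nuclei (159 ± 23.3) followed, each overlapping the next. CA1-like nuclei at 56.8 ± 3.91 and CA3-like nuclei at 28.8 ± 5.80 were not above the 63.6 ± 26.1 of the low-UMI cluster.

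Nrg3, a ligand of Erbb4, was present in every neuronal class. CA3-like nuclei were highest at 6342 ± 92.5 CPM and subicular or cortical excitatory-like nuclei next at 5727 ± 159, and these ranges overlapped neither each other nor the next class. Dentate granule-like (5140 ± 274), CA1-like (5063 ± 224) and inhibitory-like nuclei (4866 ± 165) overlapped, each with the next. Oligodendrocyte precursor-like nuclei had 2629 ± 367 and the low-UMI cluster 2111 ± 266, while astrocyte-like nuclei had 450.3 ± 60.9. A finer clustering set apart CA2-like nuclei, which had 7269 ± 230.4 CPM.

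Nrg4 was scarce in all classes. It stood at 9.97 ± 6.41 CPM in inhibitory-like, 9.60 ± 4.48 in CA3-like, 6.05 ± 3.39 in dentate granule-like, 5.31 ± 3.55 in the subicular or cortical class and 3.34 ± 1.98 in CA1-like nuclei. The low-UMI cluster had 2.92 ± 1.63, astrocyte-like nuclei 0.925 ± 0.373 and endothelial-like nuclei 0.784 ± 1.37. Neighbours in this order overlapped, and the spread over 6 libraries includes the difference between the groups described below.

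**Figure D1:**
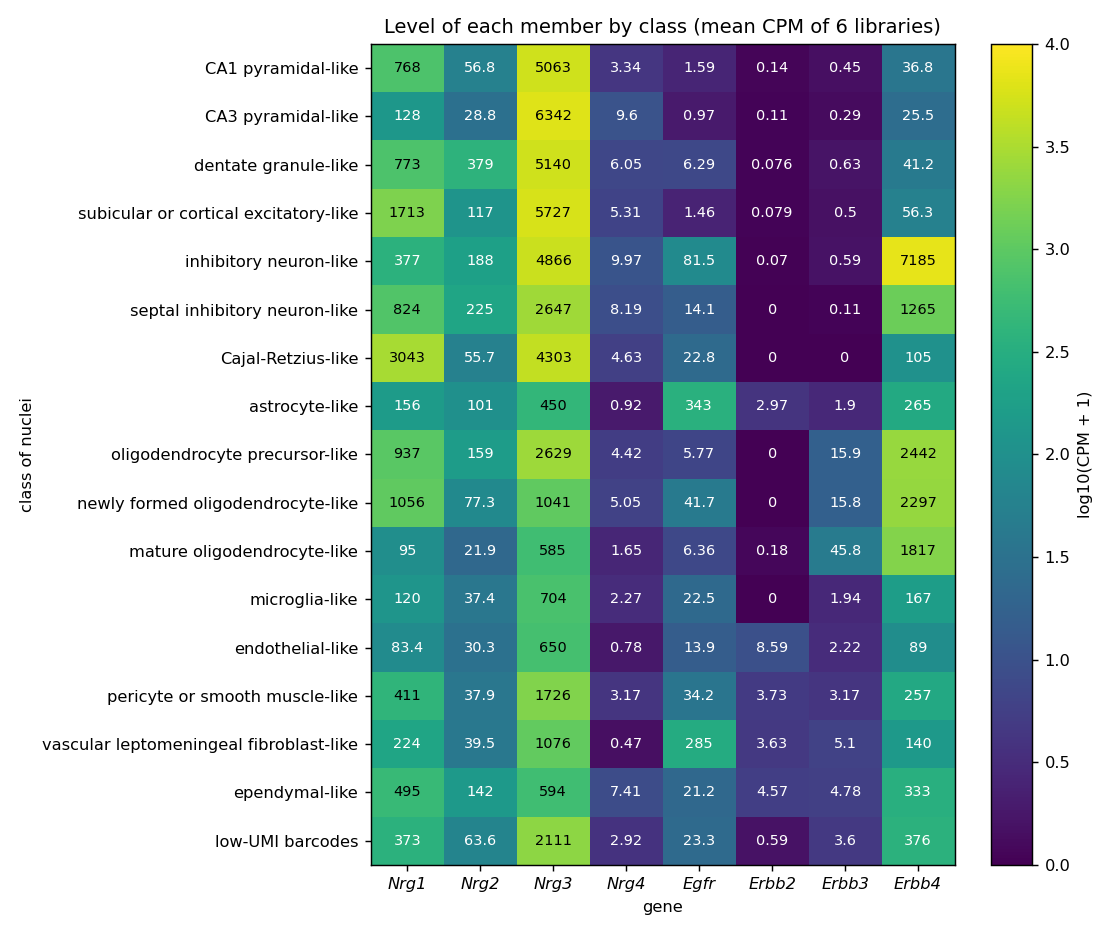
Mean CPM over the libraries for the 8 genes (across) in 16 marker-named classes and the low-UMI barcodes (down), with colour for log10(CPM + 1) and the CPM printed in each cell. Erbb4 peaks in inhibitory-like nuclei (7185 CPM), Egfr in astrocyte-like nuclei (343 CPM), Erbb3 in mature oligodendrocyte-like nuclei (45.8 CPM) and Nrg2 in dentate granule-like nuclei (379 CPM).

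Erbb4, the receptor of all 4 neuregulins, was foremost a transcript of inhibitory-like neurons. They had 7185 ± 843 CPM and held 74.9% of its UMIs with 8.33% of all UMIs, and their lowest library, 6131, was above every library of the next class. The oligodendrocyte lineage came next, with 2442 ± 307 in precursor-like, 2297 ± 412 in newly formed and 1817 ± 316 in mature oligodendrocyte-like nuclei, each overlapping the next. Septal inhibitory-like nuclei had 1265 ± 682, and the choroid plexus-like nuclei of the 3 oxygen libraries had 1449, 2236 and 1643. In the excitatory classes Erbb4 lay between 25.5 ± 9.72 CPM in CA3-like and 56.3 ± 17.0 in subicular or cortical excitatory-like nuclei, under the 376 ± 106 of the low-UMI cluster.

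The inhibitory-like nuclei, clustered alone, gave 5 named sub-types. Erbb4 was highest in Lamp5 or neurogliaform-like nuclei, interneurons known for slow, diffuse inhibition, at 12585 ± 1427 CPM, and in parvalbumin-like nuclei, the fast-spiking type, at 11043 ± 1247. Vip-like nuclei, known to inhibit other interneurons, had 9412 ± 1126, Cnr1-like nuclei 4663 ± 733, and somatostatin-like nuclei, known to inhibit dendrites, 1399 ± 252.

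Egfr, the receptor of EGF-type ligands, had another place. Astrocyte-like nuclei had 343 ± 34.3 CPM and held 46.6% of its UMIs, vascular leptomeningeal fibroblast-like nuclei had 285 ± 121, overlapping them, and inhibitory-like nuclei had 81.5 ± 18.0 and held 26.3%. Among the sub-types it was high in Vip-like nuclei (304 ± 86.9) and Lamp5 or neurogliaform-like nuclei (302 ± 72.7), and in Cnr1-like (20.4 ± 10.4) and parvalbumin-like nuclei (10.5 ± 5.63) it was not above the 23.3 ± 10.4 of the low-UMI cluster. The Lamp5 sub-type joins 2 sub-clusters: the one led by Kit, Sv2c and Ndnf had 563 ± 172 CPM, and the one led by Prlr, Sfta3-ps and Vcan had 185 ± 33.7.

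Erbb3 was a transcript of the oligodendrocyte lineage. Mature oligodendrocyte-like nuclei had 45.8 ± 11.0 CPM and 66.9% of its UMIs, without overlap with the next class, and precursor-like and newly formed oligodendrocyte-like nuclei had 15.9 ± 4.97 and 15.8 ± 9.10. Erbb2, the partner receptor, was hardly seen, with 69 UMIs over all nuclei of the sevoflurane libraries and 61 over those of the oxygen libraries. Endothelial-like nuclei were highest at 8.59 ± 2.73 CPM, and in astrocyte-like nuclei it had 5.68, 3.10 and 4.58 CPM in sevoflurane and 2.29, 1.12 and 1.03 in oxygen libraries, from 26 and 10 UMIs, too few to pass the filter.

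Sevoflurane was set against oxygen on the UMIs summed per library in the 11 classes with at least 20 nuclei in every library. The test was edgeR's quasi-likelihood test over all genes of a class with Benjamini-Hochberg adjustment, and calls are genes with an adjusted p below 0.05. Nrg1, Nrg2, Nrg3 and Erbb4 passed the filter on low counts in 11 classes, Egfr in 7, Nrg4 in 5, Erbb3 in 2 and Erbb2 in 0. Of these 58 tests 5 were called, Nrg4 higher in 3 classes, Nrg2 lower in 1 and Erbb3 lower in 1, where 1.88% of all gene tests in these classes were called. That Nrg4 was higher in inhibitory-like neurons was known when the genes were chosen, so it is no independent evidence here. The median log2 fold change of the members lay between -0.71 (microglia-like) and 0.38 (endothelial-like), against -0.00 to 0.02 over all genes tested.

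The scaling bears on every direction given here. Fold changes use TMM, a trimmed-mean scaling, while the CPM printed do not, and TMM lowers sevoflurane relative to oxygen by 0.11 (log2) in inhibitory-like, 0.13 in dentate granule-like and 0.14 in Lamp5-like nuclei. Of the genes called over all nuclei 38.1% were rises with TMM, 22.5% with a correction for gene length, and 73.2% on library totals without TMM. In inhibitory-like nuclei these shares were 22.3%, 12.4% and 55.4%, and in dentate granule-like nuclei 31.9%, 13.1% and 76.9%. The length correction was fitted to levels without TMM and then added to TMM, so it also shifted all genes together. With it the median log2 fold change of all genes was -0.0946 over all nuclei, against 0.0120 with TMM alone. In inhibitory-like nuclei it was -0.0995 against 0.0176, and in dentate granule-like nuclei -0.124 against 0.0225. Values with this correction thus mix gene length with a general shift.

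Nrg4 rose in inhibitory-like neurons. It had 19.2, 15.9 and 10.5 CPM in the sevoflurane libraries, against 4.02, 3.99 and 6.20 CPM in the oxygen libraries. Every sevoflurane library was above every oxygen library, as was so in this direction for 18.5% of the genes of this class. The log2 fold change was 1.56 (SE 0.26, adjusted p = 0.0056 by edgeR), where 1.65% of genes were called, 0.368% as rises. The UMIs behind it were 93, 70 and 61 in sevoflurane and 22, 20 and 32 in oxygen libraries. They came from 64, 57 and 49 of 565, 485 and 514 nuclei in sevoflurane libraries and from 17, 15 and 26 of 495, 488 and 532 in oxygen libraries. No nucleus held more than 5, so the UMIs were not those of a few nuclei. Nuclei of a library are no replicates of the treatment. Without library sevoflurane 1, whose Xist level goes against its label, it was 1.35 (adjusted p = 0.017), and it was called without each of the 6 libraries in turn (1.35 to 1.79).

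Marker sums differed in the same nuclei. Of 27 marker lists 5 were lower and 3 higher under sevoflurane without overlap. The 9 choroid plexus markers summed to 102 to 133 CPM in sevoflurane libraries and 168 to 429 in oxygen libraries, the 8 somatostatin markers to 2587 to 2897 CPM in sevoflurane libraries and 3486 to 3841 in oxygen libraries, and the 7 parvalbumin markers to 228 to 336 CPM in sevoflurane libraries and 344 to 387 in oxygen libraries, each sum lower under sevoflurane. Taken singly, 1 choroid plexus, 3 somatostatin and 1 parvalbumin marker were lower without overlap, and 0 were higher. The CA3 list was lower too, at 729 to 833 CPM in sevoflurane libraries and 869 to 1006 in oxygen libraries. So was the Cajal-Retzius list, at 598 to 692 CPM in sevoflurane libraries and 797 to 846 in oxygen libraries. Without overlap, 2 of 8 CA3 markers were lower and 1 higher, and 1 of 8 Cajal-Retzius markers lower and 0 higher. The Cajal-Retzius and somatostatin lists share Reln, so their sums are not independent. Those higher were the CA2 list at 84.8 to 130.2 CPM in sevoflurane libraries and 71.4 to 77.4 in oxygen libraries, the pericyte list at 23.4 to 33.3 CPM in sevoflurane libraries and 21.4 to 21.8 in oxygen libraries and the ependymal list at 17.4 to 27.9 CPM in sevoflurane libraries and 14.7 to 17.0 in oxygen libraries. In these CA2, pericyte and ependymal lists 3 of 7, 2 of 9 and 3 of 9 markers were higher without overlap, and 0 lower. The general inhibitory list overlapped, 1351 to 1501 CPM in sevoflurane libraries and 1469 to 1523 in oxygen libraries. Of its 8 markers, however, 4 were higher and 1 lower under sevoflurane without overlap. The part of these lists and of the sub-type shares in the Nrg4 result was not tested as such, but the 5 sub-types are given one by one below. Fbxo22, which overlaps Nrg4 on the other strand, was at 0.20 (adjusted p = 0.59) in inhibitory-like nuclei; whether the counting used strand is not given in the sources used here.

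Nrg4 also rose in subicular or cortical excitatory-like and CA3-like nuclei. Subicular or cortical excitatory-like nuclei had 9.03, 10.1 and 5.45 CPM in sevoflurane libraries, against 2.85, 1.76 and 2.63 in oxygen libraries, a log2 fold change of 1.64 (SE 0.28, adjusted p = 0.026 by edgeR; 1.89% of genes called, 0.577% as rises). CA3-like nuclei had 13.3, 15.4 and 11.1 CPM in sevoflurane libraries, against 6.52, 3.46 and 7.81 in oxygen libraries, a log2 fold change of 1.10 (SE 0.25, adjusted p = 0.0499 by edgeR; 1.47% called, 0.182% as rises). Neither pair of groups overlapped, as in this direction for 22.5% and 16.9% of genes. The CA3-like call lies on the threshold and was lost without any 1 library (adjusted p 0.075 to 0.15), with the correction for gene length (1.07, adjusted p = 0.052) and on library totals (1.19, adjusted p = 0.061). The subicular or cortical call was lost without sevoflurane 1 (1.54) or any 1 oxygen library (adjusted p 0.065 to 0.13). The clusters of this class led by Gm6260 and by Cdh18 gave 2.16 and 2.22 alone, and the one led by C1qtnf7 gave 0.95 (adjusted p = 0.46). Own markers of both classes summed lower under sevoflurane. The subicular or cortical list was at 3202 to 3748 CPM in sevoflurane libraries and 3901 to 4077 in oxygen libraries. The CA3 list was at 2378 to 2691 CPM in sevoflurane libraries and 2863 to 3003 in oxygen libraries. Without overlap, 1 of 15 markers of the first list was lower and 1 higher, and 1 of 8 of the second lower and 0 higher. In all, 5 of 27 lists were lower and 5 higher without overlap in the subicular or cortical class, and 7 lower and 4 higher in CA3-like nuclei. Their part in the result was not tested.

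In dentate granule-like and CA1-like nuclei Nrg4 was higher in every sevoflurane library and was not called. Such non-overlap was common there, holding in this direction for 27.3% and 21.7% of genes. Dentate granule-like nuclei had 10.5, 9.41 and 5.93 CPM in sevoflurane and 4.10, 1.51 and 4.80 in oxygen libraries (log2 fold change 1.23, SE 0.40, adjusted p = 0.15; 4.71% called). CA1-like nuclei had 6.34, 4.17 and 4.04 in sevoflurane and 2.15, 0.576 and 2.74 in oxygen libraries (1.38, SE 0.44, adjusted p = 0.14; 1.96% called). Septal inhibitory-like nuclei, too few under oxygen for a test, had 23.2, 14.4 and 11.5 CPM in sevoflurane libraries. No Nrg4 UMI was seen in the 43 nuclei of the oxygen libraries, which held 89963 to 131184 UMIs per library. That allows up to 8.53 CPM over the oxygen group, counting error only. The pooled sevoflurane level of 15.9 CPM was 1.86 times this limit. The spread between libraries and the counting error of the sevoflurane level are left out, so no smallest fold is given. The groups overlapped in Cajal-Retzius-like nuclei, where Nrg4 had 6.90, 0 and 0 CPM in sevoflurane and 0, 20.9 and 0 in oxygen libraries, from 4 UMIs in all. They overlapped in hilar mossy-like nuclei of the finer clustering too, with 10.2 ± 1.51 CPM in sevoflurane and 6.92 ± 5.44 in oxygen libraries (SD, n = 3 libraries each). Astrocyte-like nuclei had 0.811, 0.885 and 1.53 CPM in sevoflurane and 0.916, 0.372 and 1.03 in oxygen libraries, and the low-UMI cluster 3.39, 3.06 and 2.59 in sevoflurane and 3.56, 0 and 4.94 in oxygen libraries.

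Among the inhibitory sub-types Nrg4 passed the filter in parvalbumin-like nuclei only. They had 24.1, 32.6 and 14.8 CPM in sevoflurane libraries, against 1.85, 4.32 and 9.33 in oxygen libraries (log2 fold change 1.86, SE 0.50, adjusted p = 0.13; 0.0716% called). Nrg4 passed the filter there through the sevoflurane libraries alone, where it was high. This fold change was thus selected toward a rise and is no independent support. Somatostatin-like nuclei had 22.7, 10.5 and 7.67 in sevoflurane and 2.85, 0 and 3.80 in oxygen libraries, and Vip-like nuclei 19.8, 14.4 and 11.7 in sevoflurane and 0, 2.35 and 2.95 in oxygen libraries. Lamp5-like nuclei had 10.4, 7.79 and 8.19 in sevoflurane and 3.23, 0 and 3.79 in oxygen libraries, and Cnr1-like nuclei 16.0, 18.3 and 7.69 in sevoflurane and 6.37, 4.73 and 9.62 in oxygen libraries. The groups overlapped in Cnr1-like nuclei and in no other sub-type. Non-overlap in this direction held for 8.51% of the genes tested in parvalbumin-like, 12% in somatostatin-like, 9.9% in Vip-like and 14.4% in Lamp5-like nuclei. Nrg4 did not pass the filter in somatostatin-like, Vip-like and Lamp5-like nuclei, so the shares there are of other genes that did. Its values there rest on few UMIs: Vip-like nuclei held 302739 to 426392 UMIs of all genes per library.

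**Figure D2:**
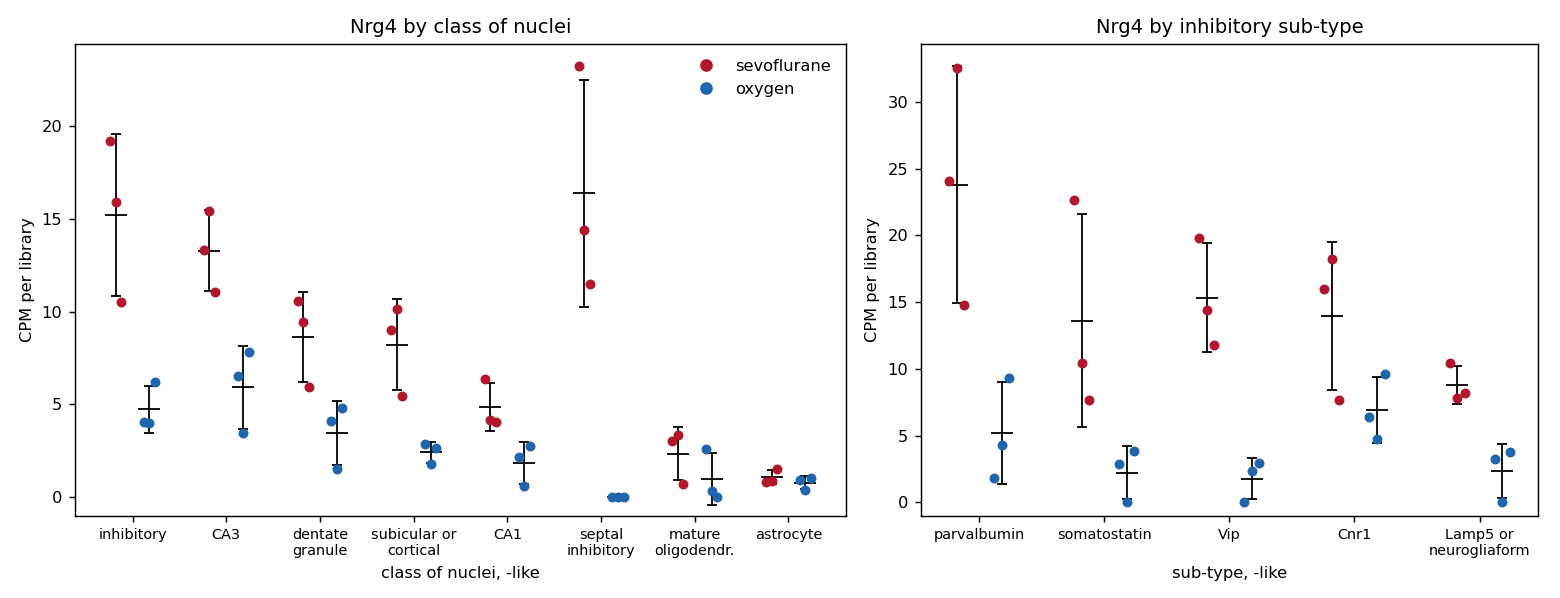
Nrg4 in CPM per library by class (left) and by inhibitory sub-type (right), sevoflurane left of oxygen in each pair, points for libraries and bars for the mean ± SD of 3 libraries. In inhibitory-like nuclei the sevoflurane libraries lie at 10.5 to 19.2 CPM and the oxygen libraries at 3.99 to 6.20 CPM.

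Whether the Nrg4 response differed between classes was tested with limma on differences within libraries. On the log2 scale, inhibitory-like minus CA3-like was 0.39 (SE 0.27), minus dentate granule-like 0.22 (SE 0.30), minus CA1-like 0.10 (SE 0.37) and minus subicular or cortical excitatory-like -0.08 (SE 0.27). By limma 0 of 4 were called, with a smallest adjusted p of 0.76 and a smallest unadjusted p of 0.16, where 0.0432% to 0.393% of genes were called. A response that is the same in these classes is not shown by this.

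Nrg2 fell in dentate granule-like nuclei, where it is highest. It had 341, 356 and 377 CPM in sevoflurane libraries, against 400.5, 414 and 386 in oxygen libraries, without overlap, as in this direction for 5.32% of genes. The log2 fold change was -0.29 (SE 0.07, adjusted p = 0.040 by edgeR), in a class with 4.71% of genes called, 3.21% as falls. The call was lost on library totals without TMM (-0.16, adjusted p = 0.14) and without each library other than sevoflurane 3 (adjusted p 0.075 to 0.16; -0.26 without sevoflurane 1). The class joins 2 clusters, one with most of its nuclei from oxygen and one from sevoflurane libraries, and alone they gave -0.23 (adjusted p = 0.086) and -0.19 (adjusted p = 0.51). Of 27 marker lists 5 were lower and 5 higher in this class without overlap. Choroid plexus markers summed to 24.7 to 29.6 CPM in sevoflurane libraries and 81.0 to 385 in oxygen libraries. The subicular or cortical list was lower as well, at 1351 to 1445 CPM in sevoflurane libraries and 1686 to 1774 in oxygen libraries. The astrocyte list was too, at 1085 to 1142 CPM in sevoflurane libraries and 1203 to 1299 in oxygen libraries. In these lists 6 of 15 and 3 of 10 markers were lower without overlap, and 0 and 1 higher. The CA1 list summed to 338 to 388 CPM in sevoflurane libraries and 429.7 to 511 in oxygen libraries. The CA3 list summed to 359 to 367 CPM in sevoflurane libraries and 394 to 401 in oxygen libraries. Both sums were lower, but more of their markers separated upward. Without overlap, 2 of 7 CA1 markers were higher and 1 lower, and 3 of 8 CA3 markers higher and 1 lower. The CA2 list, at 197 to 225 CPM in sevoflurane libraries and 134 to 169.9 in oxygen libraries, and the general excitatory list, at 2201 to 2400 CPM in sevoflurane libraries and 1965 to 2164 in oxygen libraries, were among those higher. The dentate granule list overlapped, 2344 to 2430 CPM in sevoflurane libraries and 2256 to 2407 in oxygen libraries, and the part of these lists in the result was not tested. In inhibitory-like nuclei Nrg2 had 173, 180.2 and 181 in sevoflurane and 205, 196 and 192 in oxygen libraries (-0.26, SE 0.07, adjusted p = 0.091).

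Nrg1 and Nrg3 were called in 0 of 11 classes each by edgeR. At an unadjusted p under 0.05 there were 4 classes for Nrg1 and 7 for Nrg3, where 14.3% of all gene tests passed it. Their log2 fold changes were negative in 8 classes for Nrg1 (median -0.29) and in 10 for Nrg3 (median -0.20). These genes span 1069 kb and 1104 kb, and with the correction for gene length the medians were -0.12 and -0.03, while on library totals they were -0.19 and -0.08. That correction also shifts all genes together, as given above, and the part due to length was not separated. In CA1-like nuclei Nrg3 had 4931, 4857 and 4950 CPM in sevoflurane and 5018, 5473 and 5148 in oxygen libraries, not overlapping, as in this direction for 5.05% of genes, and not called (-0.20, SE 0.06, adjusted p = 0.10). Cajal-Retzius-like nuclei, too few for a test with 19 to 50 per library, had 3458, 3437 and 3576 CPM of Nrg3 in sevoflurane and 5850, 4779 and 4719 in oxygen libraries.

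**Figure D3:**
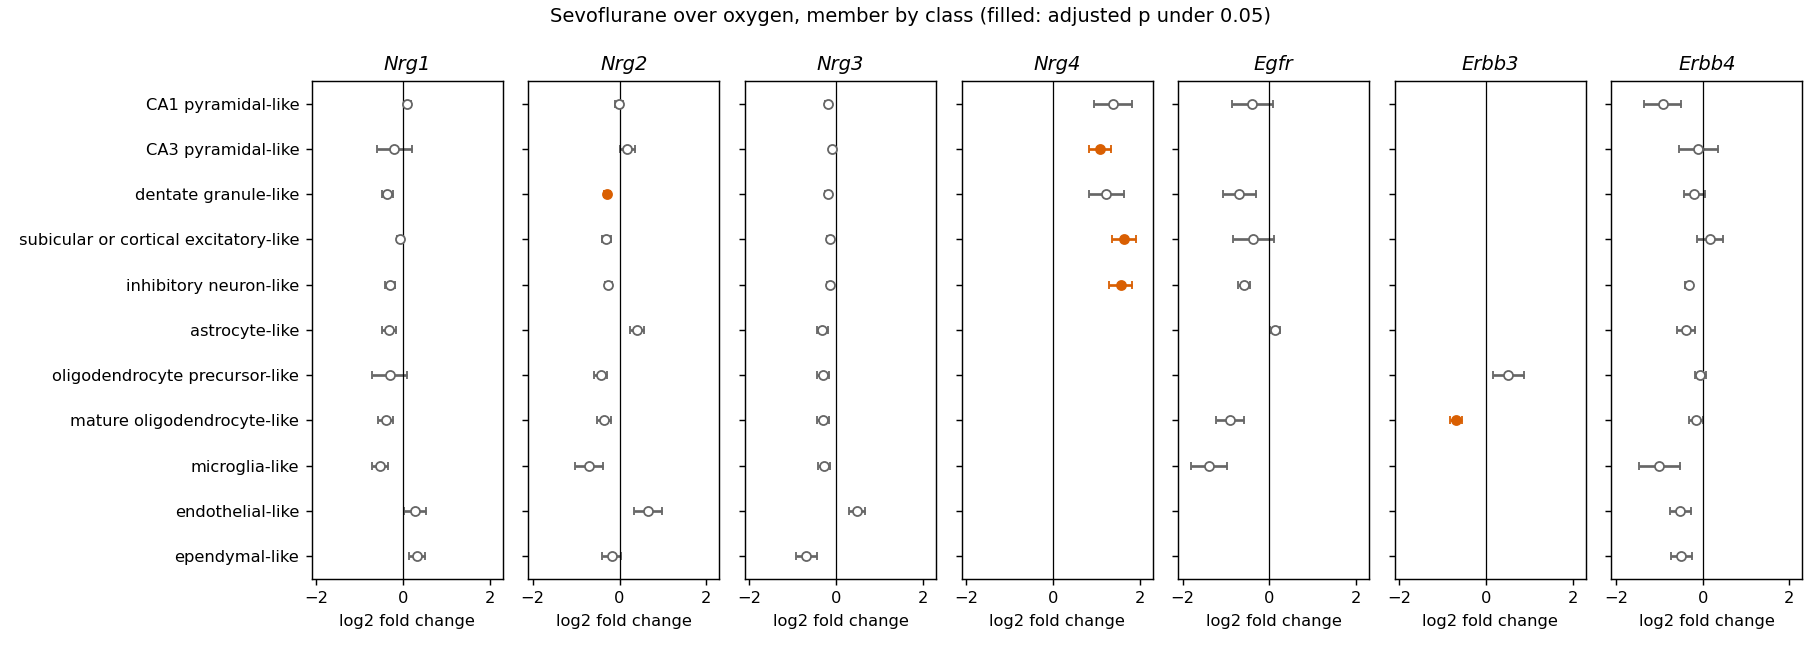
Log2 fold change of sevoflurane over oxygen for each gene that passed the filter, by class down the page, with bars for the standard error and filled points for an adjusted p under 0.05. Nrg4 lies between 1.10 and 1.64 in the 5 classes where it was tested, and Erbb4 and Nrg3 lie below 0 in 10 of 11 classes each, though in 7 and 9 with the correction for gene length.

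Egfr fell in Lamp5 or neurogliaform-like interneurons. It had 206, 277 and 236 CPM in sevoflurane libraries, against 382, 348 and 362 in oxygen libraries, without overlap, as in this direction for 4.46% of genes. The log2 fold change was -0.73 (SE 0.13, adjusted p = 0.0011 by edgeR), where 1.81% of genes were called, 1.48% as falls. It was the 1 call in 24 member tests over the 5 sub-types, where 0.795% of all gene tests were called. It was called without each library in turn (-0.85 to -0.63, with -0.63 without sevoflurane 1) and on library totals (-0.59, adjusted p = 0.012). The sub-cluster with the higher level, led by Kit, had 348, 494 and 407 CPM in sevoflurane and 784, 687 and 656 in oxygen libraries (-0.87, adjusted p = 0.0015). The other had 151, 200.0 and 137 in sevoflurane and 224, 189.8 and 207 in oxygen libraries (-0.45, adjusted p = 0.27), and the difference between the sub-clusters was not tested.

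Markers moved in these Lamp5 nuclei, with 5 of 27 lists lower and 7 higher under sevoflurane without overlap. The general inhibitory list, markers of these nuclei themselves, was lower, at 2022 to 2118 CPM in sevoflurane libraries and 2299 to 2598 in oxygen libraries, with 3 of 8 markers lower and 1 higher without overlap. The Cajal-Retzius list stood lower too, at 941 to 1339 CPM in sevoflurane libraries and 1781 to 2190 in oxygen libraries. It shares Reln with the somatostatin list and Ndnf with the Lamp5 list, so these sums are not independent. Reln and Ndnf are also leading genes of the Lamp5 sub-cluster led by Kit. The choroid plexus list was lower as well, at 71.6 to 98.3 CPM in sevoflurane libraries and 156 to 396 in oxygen libraries. The 8 somatostatin markers summed to 3273 to 3460 CPM in sevoflurane libraries and 6058 to 6859 in oxygen libraries, with 4 of them lower without overlap, the Cnr1 list to 1656 to 2241 CPM in sevoflurane libraries and 2498 to 3151 in oxygen libraries, and the general excitatory list to 768 to 902 CPM in sevoflurane libraries and 526 to 682 in oxygen libraries, higher under sevoflurane. The Lamp5 markers overlapped between the groups, 781 to 1061 CPM in sevoflurane libraries and 859.6 to 999 in oxygen libraries. Their part in the Egfr result was not tested.

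In inhibitory-like nuclei as a whole Egfr had 52.6, 81.5 and 71.1 CPM in sevoflurane and 103, 95.4 and 85.0 in oxygen libraries, without overlap, as in this direction for 4.55% of genes, and not called (-0.58, SE 0.14, adjusted p = 0.070). Astrocyte-like nuclei, which hold the largest share of Egfr, had 340.0, 379 and 385 in sevoflurane and 344, 304 and 307 in oxygen libraries, which overlap (0.12, SE 0.12, adjusted p = 0.69; 2.21% called). The difference of the responses, inhibitory-like minus astrocyte-like, was -0.71 (SE 0.13, adjusted p = 0.020 by limma; 0.852% called). It was the 1 call in 50 such differences over the members, where 0.356% of gene tests were called, and was lost without sevoflurane 3 or any 1 oxygen library (adjusted p 0.058 to 0.13). In microglia-like nuclei Egfr had 5.95, 6.85 and 24.6 CPM in sevoflurane and 34.9, 32.2 and 30.2 in oxygen libraries (-1.39, SE 0.41, adjusted p = 0.19; 0.336% called), around the level of the low-UMI cluster. The oxygen libraries, where it was high, were enough for Egfr to pass the filter there. This fold change was thus selected toward a fall and is no independent support.

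Erbb3 fell in mature oligodendrocyte-like nuclei, where it is highest. It had 37.6, 37.8 and 33.1 CPM in sevoflurane libraries, against 51.5, 59.8 and 55.1 in oxygen libraries, without overlap, as in this direction for 6.41% of genes. The log2 fold change was -0.70 (SE 0.14, adjusted p = 0.025 by edgeR), where 0.874% of genes were called, 0.715% as falls. The UMIs were 138, 91 and 97 in sevoflurane and 139, 187 and 106 in oxygen libraries. Without sevoflurane 1 it was -0.73 (adjusted p = 0.031), and the call was lost without sevoflurane 3 or any 1 oxygen library (adjusted p 0.051 to 0.18) and on library totals (-0.62, adjusted p = 0.062). Of 27 marker lists 2 were lower and 2 higher in this class without overlap. Choroid plexus markers summed to 26.2 to 37.4 CPM in sevoflurane libraries and 222 to 1260 in oxygen libraries, with 3 of 9 lower without overlap, and the choroid plexus-like class itself held 1 UMI of Erbb3. The 10 markers of mature oligodendrocytes overlapped, 8768 to 10761 CPM in sevoflurane libraries and 10404 to 10589 in oxygen libraries. The subicular or cortical list was lower, at 448 to 497 CPM in sevoflurane libraries and 504 to 633 in oxygen libraries, the ependymal list higher, at 26.6 to 39.5 CPM in sevoflurane libraries and 22.4 to 24.8 in oxygen libraries, and the newborn granule list higher, at 46.7 to 52.1 CPM in sevoflurane libraries and 37.7 to 40.5 in oxygen libraries. The part of these lists in the result was not tested. In precursor-like nuclei Erbb3 had 17.6, 17.0 and 22.5 CPM in sevoflurane and 15.5, 7.22 and 15.2 in oxygen libraries (0.51, SE 0.36, adjusted p = 0.68; 0.00979% called).

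**Figure D4:**
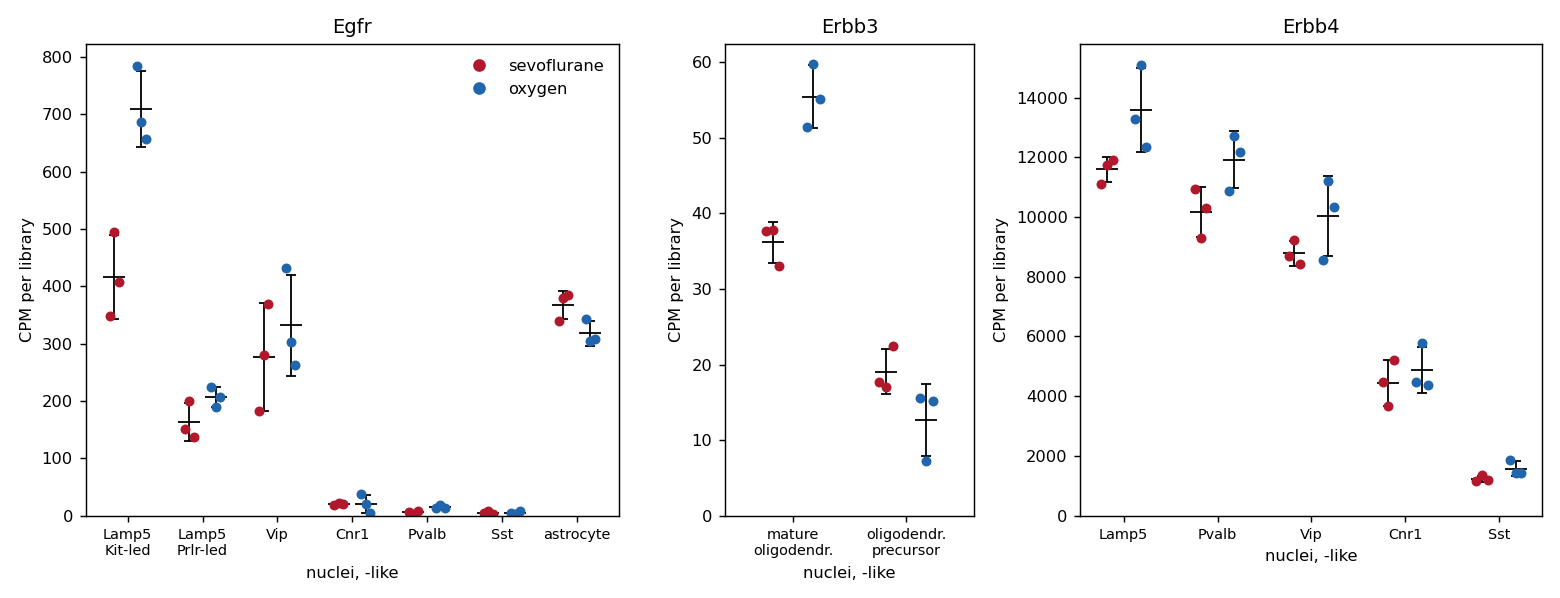
Egfr, Erbb3 and Erbb4 in CPM per library in the nuclei named on the axis, sevoflurane left of oxygen in each pair, points for libraries and bars for the mean ± SD of 3 libraries. Erbb3 in mature oligodendrocyte-like nuclei lies at 33.1 to 37.8 CPM under sevoflurane and at 51.5 to 59.8 under oxygen, and Egfr in the Lamp5 sub-cluster led by Kit at 348 to 494 under sevoflurane and 656 to 784 under oxygen.

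Erbb4 was called over all nuclei and in 0 of the 11 classes by edgeR. Over all nuclei it had 679, 674 and 807 CPM in sevoflurane libraries, against 946, 839 and 889 in oxygen libraries, without overlap, as in this direction for 6.35% of genes. The log2 fold change was -0.41 (SE 0.08, adjusted p = 0.0498 by edgeR), where 1.98% of genes were called, 1.23% as falls, and in such a sum fewer nuclei of a class and less RNA per nucleus cannot be told apart. With equal class shares in every library it was -0.31 (adjusted p = 0.057), with the correction for length -0.25 (adjusted p = 0.091) and on library totals -0.31 (adjusted p = 0.093). It also lost its call without 5 of the 6 libraries (-0.49 to -0.36 over all 6; -0.37 without sevoflurane 1).

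In inhibitory-like nuclei Erbb4 had 6707, 6131 and 7100 CPM in sevoflurane and 7038, 8630 and 7504 in oxygen libraries, which overlap (-0.32, SE 0.09, adjusted p = 0.087). Somatostatin-like nuclei had 1146, 1346 and 1198 in sevoflurane and 1857, 1421 and 1425 in oxygen libraries (-0.44, SE 0.12, adjusted p = 0.078; 0.715% called). Lamp5-like nuclei had 11108, 11759 and 11919 in sevoflurane and 13289, 15097 and 12335 in oxygen libraries (-0.36, SE 0.10, adjusted p = 0.095). The groups did not overlap in these 2 sub-types, as in this direction for 4.49% of genes in somatostatin-like and 4.46% in Lamp5-like nuclei, and neither was called. In precursor-like and mature oligodendrocyte-like nuclei, the next holders of Erbb4, the log2 fold changes were -0.05 (SE 0.13) and -0.15 (SE 0.16). Over all nuclei Nrg4 was at 1.37 (SE 0.30, adjusted p = 0.070) and Erbb2 at -0.08 (SE 0.32), neither called.

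**Figure D5:**
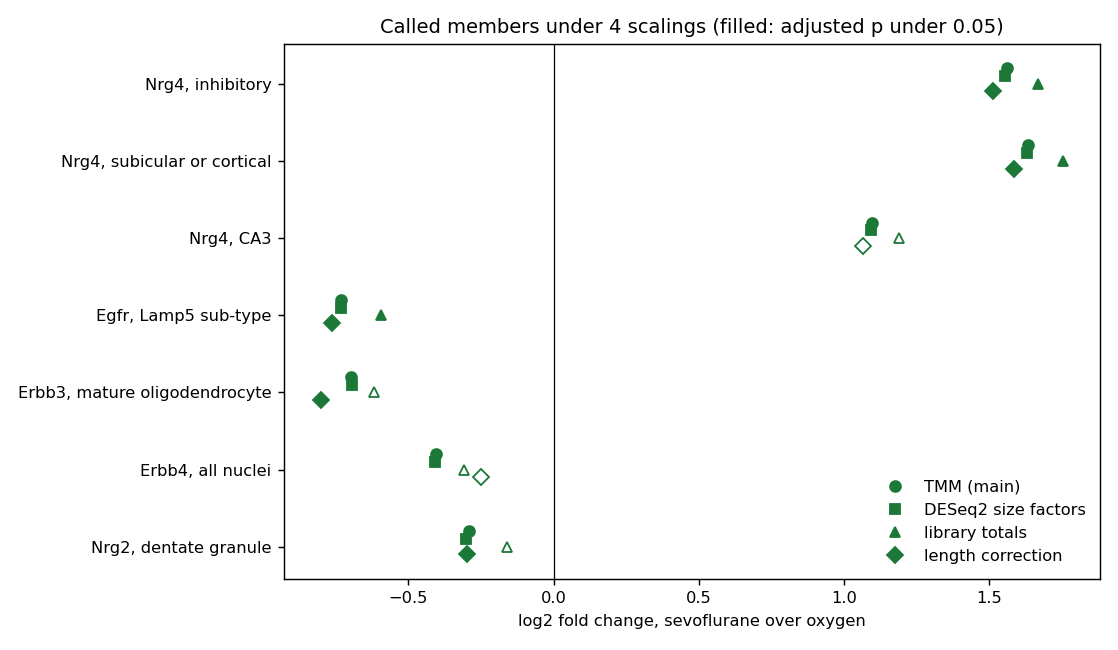
Log2 fold change of 7 called results under TMM, DESeq2 size factors, library totals and the correction for gene length, with filled points for an adjusted p under 0.05. Nrg4 in inhibitory-like nuclei is 1.56 with TMM and 1.67 on library totals, and Nrg2 in dentate granule-like nuclei -0.29 and -0.16.

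The rest of the pathway was read from 5 lists of 75 genes, in 690 tests over the 11 classes. There were 5 rises and 6 falls, 1.59% of the tests, near the share over all genes. Of 25 tests of the EGF-type ligands, which bind Egfr or Erbb4, 0 were called by edgeR. Of 114 tests of the proteases that cut ligands and receptors 1 was called, a fall of Adam19, a protease that cuts neuregulins, in subicular or cortical excitatory-like nuclei. It had 13.2, 13.9 and 19.8 CPM in sevoflurane libraries, against 27.5, 21.3 and 27.3 in oxygen libraries (log2 fold change -0.80, SE 0.17, adjusted p = 0.044 by edgeR).

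Among receptor anchors and adaptors 1 rise and 3 falls were called in 176 tests. The falls were all of Shc3, a neuronal adaptor of receptor tyrosine kinases. In astrocyte-like nuclei Shc3 had 83.6, 57.5 and 66.8 CPM in sevoflurane libraries, against 147, 166 and 145 in oxygen libraries (log2 fold change -1.25, SE 0.15, adjusted p = 0.00021 by edgeR). In inhibitory-like nuclei it had 94.3, 106 and 119.8 in sevoflurane and 142, 141 and 137 in oxygen libraries (log2 fold change -0.50, SE 0.09, adjusted p = 0.011), and in subicular or cortical excitatory-like nuclei 73.8, 86.5 and 64.7 in sevoflurane and 95.3, 101 and 94.4 in oxygen libraries (log2 fold change -0.50, SE 0.10, adjusted p = 0.042). The groups overlapped in none of these 3 classes, as in this direction for 6.64% of genes in astrocyte-like, 4.55% in inhibitory-like and 4.71% in subicular or cortical excitatory-like nuclei. Gab2, a docking protein for PI3 kinase, rose in astrocyte-like nuclei, with 152, 263 and 270.3 CPM in sevoflurane and 112, 113 and 124 in oxygen libraries (log2 fold change 0.90, SE 0.17, adjusted p = 0.013). In astrocyte-like nuclei 5 of 27 marker lists were lower and 6 higher without overlap. Choroid plexus markers there summed to 24.4 to 43.4 CPM in sevoflurane libraries and 168 to 981 in oxygen libraries and the astrocyte markers to 11503 to 13804 CPM in sevoflurane libraries and 13962 to 14272 in oxygen libraries, and their part was not tested.

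Of the negative regulators of ErbB signalling 3 rises and 1 fall were called in 127 tests. Errfi1, an inhibitor of the Egfr kinase, rose in CA1-like nuclei, with 53.6, 55.5 and 51.6 CPM in sevoflurane libraries, against 30.6, 31.8 and 31.6 in oxygen libraries (log2 fold change 0.66, SE 0.09, adjusted p = 0.0039 by edgeR). Lrig1, which promotes the breakdown of ErbB receptors, rose in ependymal-like nuclei, with 121, 121 and 147 in sevoflurane and 54.5, 52.7 and 61.3 in oxygen libraries (log2 fold change 1.17, SE 0.25, adjusted p = 0.025; 0.541% called). Socs5 rose in endothelial-like nuclei (log2 fold change 0.95, SE 0.20, adjusted p = 0.0099; 3.61% called), and Spry2 fell in astrocyte-like nuclei (log2 fold change -0.70, SE 0.17, adjusted p = 0.034). In the kinase cascades below the receptors, 1 rise and 1 fall were called in 248 tests. The rise was of the kinase Fyn in endothelial-like nuclei (log2 fold change 0.86, SE 0.17, adjusted p = 0.0056).

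The genes most like each member in level were sought over 15219 genes and the 16 classes present in every library, by Pearson's r of log2(CPM + 1) of the oxygen means. These values describe classes that share libraries and depth. For Erbb4 they were Sox2ot (0.95), the kainate receptor subunit Grik1 (0.91) and Nxph1 (0.89), and for Erbb3 Gm29455 (0.94), the protease Adamts4 (0.92) and Plxnb3 (0.91). For Egfr they were Egfros (0.92), which overlaps it, Mrrf (0.84) and Acbd5 (0.83), and for Erbb2 Flvcr2 (0.97), Arhgef5 (0.96) and Fzd6 (0.96). For Nrg3 they were Gm20642 (0.99) and Nrg3os (0.98), which overlap it on the other strand so that their reads may not be told apart, and the channel Trpc5 (0.97). For Nrg1 they were Zmiz1os1 (0.86) and Lrrc40 (0.82), for Nrg2 Klhl32 (0.88), Rgs9 (0.84) and Usp13 (0.83), and for Nrg4 Gtf2h3 (0.83), Slc2a2 (0.83) and Ntn3 (0.82).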

How the data were processed

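Nuclei of frozen hippocampus were profiled with 10x Chromium 3' v3.1 kits, per the labels' protocols, and the submitters' processing notes name fastp, Cell Ranger 7.1.0 and mm10. The deposited matrices hold raw UMI counts per gene and barcode, with no normalization by the authors; the sources used here do not give the use of introns and strand. The members and the pathway lists were chosen with earlier results of these data known.

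Barcodes with at least 500 UMIs, 300 genes and at most 5% mitochondrial UMIs were kept (53287), and 1395 Scrublet doublets were removed. Nuclei were clustered with scanpy 1.11.5 (3000 variable genes without the 8 members, 40 components, 20 neighbours, Leiden resolution 1.0) and named from 27 marker lists, a marker counting at 10 CPM and 2-fold over the other clusters, with at least 3 markers; these naming settings were chosen with the clusters in view. UMIs were summed per library and class and tested with edgeR 4.0.16 (quasi-likelihood, TMM, filterByExpr, robust, treatment as the one term, Benjamini-Hochberg over all genes), in R 4.3.3. Standard errors were taken from the fold change and its F statistic. Differences of responses were tested with limma 3.58.1 on log2 CPM with a prior count of 2. Alternatives used DESeq2 1.42.0, among others.

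All members were described, every called member was named, and so was every called gene of the pathway lists, with values for the smallest p, except that some genes these rules would name are not reported here. In simulated data with known changes, the test recovered 75% of 200 genes changed by a log2 fold change of 1 in either direction in inhibitory-like nuclei (14117 genes), with 4 false calls. The limit given for Nrg4 in septal inhibitory-like nuclei of the oxygen libraries covers counting error only.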

Additional observations from a re-analysis of the deposited data

Results flagged for a closer look

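The response of Egfr differed between inhibitory-like neurons and astrocyte-like nuclei by -0.71 on the log2 scale (SE 0.13, adjusted p = 0.020 by limma), a difference tested directly within libraries. It was the 1 call in 50 such differences over the members, where 0.356% of all gene tests were called, and 0.852% in this pair of classes. The call held in 8 of 12 alternatives, and in 2 of 6 fits with 1 library left out (adjusted p up to 0.13 by limma). Egfr itself was called in neither class (adjusted p = 0.070 in inhibitory-like and 0.69 in astrocyte-like nuclei by edgeR). Egfr averaged 68.4 ± 14.6 CPM in sevoflurane and 94.6 ± 9.22 CPM in oxygen libraries in inhibitory-like nuclei, and 368 ± 24.5 CPM in sevoflurane and 318 ± 22.0 CPM in oxygen libraries in astrocyte-like nuclei (SD, n = 3 libraries each).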

How the results depend on the processing

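Of the 58 class tests of members 5 were called. The count was 11 with no filter on low counts, 8 with DESeq2's Wald test, 2 on library totals without TMM, a scaling added after seeing the data, and 1 to 7 with 1 library left out. Over all nuclei 1 was called; DESeq2's Wald test called 2, and 0 were called by edgeR with the replicate block, with the length correction, with both, with doublets kept, with the stricter filter on nuclei, with equal class shares and on library totals, and 0 to 1 with 1 library left out. In the sub-types 1 was called, against 4 with no filter, 3 with DESeq2's Wald test, 2 with the stricter filter on nuclei and 1 to 3 with 1 library left out. The pathway lists had 11 calls, against 26 with no filter, 25 with the length correction, 7 with the stricter filter and 5 to 14 with 1 library left out. The fits with no filter and with DESeq2's Wald test start from every gene with a UMI, so their tests are not the 58 of the main fits. Their counts are therefore no shares of these tests. The shares called over all genes under these alternatives, and with the replicate block below, are not given here. A result about the members cannot be read from the counts alone. The causes were not tested.

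Nrg4 in inhibitory-like neurons was called in 16 of 17 alternatives, with 1.35 to 1.79 when 1 library was left out (adjusted p 0.0046 to 0.047); the cluster led by Adarb2 alone gave 1.47 (adjusted p = 0.14). DESeq2's Wald test gave no adjusted p for it. The difference of the Nrg4 response between classes was called in 0 of 4 under its 12 alternatives by limma, and its alternative with DESeq2 size factors was not run. Erbb2 over all nuclei, -0.08 as reported, was 0.0795 without sevoflurane 1, 0.22 without oxygen 3, 0.20 with equal class shares and 0.0224 on library totals, and between -0.24 and 0.22 with 1 library left out. Nrg3 over all nuclei, -0.14 as reported, was 0.0195 with the length correction and 0.0196 with the replicate block as well.

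Replicate numbers did not pair the libraries: the deviations of same-numbered libraries correlated between -0.11 and 0.04 over 12 sets of nuclei, and of other libraries between -0.11 and 0.18. With the replicate block 4 of the 58 class tests and 8 pathway tests were called, and Nrg4 in inhibitory-like neurons was 1.54 (adjusted p = 0.041). The block lost the calls of Nrg4 in CA3-like nuclei (adjusted p = 0.12), Nrg2 in dentate granule-like nuclei (adjusted p = 0.13) and Erbb4 over all nuclei (adjusted p = 0.085). At a clustering resolution of 2.0 the CA3-like call was lost (adjusted p = 0.071). Depth limits Nrg4, Erbb2 and Erbb3, whose UMIs per class and library are few.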
